A study of Homo sapiens with 4 samples.

Results

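The 9 genes described here encode the kinases that drive cells through mitosis and the partners that place and activate them. They are the Polo-like kinases PLK1 and PLK4, the Aurora kinases AURKA and AURKB, the NIMA-related kinase NEK2, the passenger complex subunits INCENP, BIRC5 (survivin) and CDCA8 (borealin), and TPX2, the spindle protein that activates Aurora A. They were taken by symbol from the platform annotation, and all 9 of the 9 had at least 1 row of their own among 17144 named genes in the value table. Where a gene had several rows, the row with the highest mean over the 4 arrays stood for it. The study asked which transcripts of melanoma cells change when the acetyltransferase activity of p300 is inhibited. WM35, a human line derived from a radial growth phase melanoma, was kept in DMEM with fetal bovine serum. The groups were C646 at 20 µM for 6 h, C646 at 20 µM for 24 h, the solvent DMSO at 0.2% for 6 h and DMSO at 0.2% for 24 h. C646 is a small molecule that inhibits the acetyltransferases p300 and CBP. Each group was measured on 1 Affymetrix Human Exon 1.0 ST array, so the differences between 2 arrays have no replicate check and carry no p-value. All samples came from 1 cell line, and 1 sample of each kind was measured.

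Mitotic kinases act in sequence. PLK1 and Aurora A, which TPX2 activates on spindle microtubules, mature the centrosomes and build the spindle. PLK4 starts the duplication of centrioles, and NEK2 loosens the link between the centrosomes before they part. Aurora B works inside the chromosomal passenger complex: INCENP is its scaffold and activator, and survivin and borealin bring the complex to centromeres and later to the midzone. In dividing cells the transcripts of these genes are known to peak in G2 and mitosis, under control of the MuvB, B-MYB and FOXM1 factors, and to be low in cells outside the cycle.

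The deposited log2 values had medians of 4.39 to 4.41 on the 4 arrays. Pearson correlations across probe sets were 0.975 to 0.979 between the 24 h C646 array and the rest, and 0.991 to 0.996 within the rest. Of 27631 probe sets, the 16579 whose mean reached 3.96, the 40th percentile, served as the background, and all 9 genes lay above that level. The melanocyte markers fixed for the cell type were present: 6 of 8 had a row of their own, and the lowest of their values on any array was 6.06. Of the 14 measured markers of keratinocytes, fibroblasts, leukocytes and endothelium, 3 reached the filter level (KRT10, COL1A1 and LUM). COL1A1 read 4.02 to 4.08, near that level, but KRT10 read 5.82 to 5.99 and LUM 5.55 to 5.92.

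After 24 h all 9 genes were lower with C646 than with DMSO, and all 9 differed at least 2-fold. In the background 45% of probe sets lay below 0, 2.5% were at least 2-fold lower and 1.14% at least 2-fold higher. The 9 differences had a median of -1.70 on the log2 scale and ran from -3.29 for CDCA8 to -1.03 for INCENP, while the median over the background was 0.030. On the linear scale the C646 array held 10.2% of the DMSO signal for CDCA8 and 48.9% for INCENP. The C646 array of 24 h was the lowest of the 4 for all 9 genes, as it was for 30.3% of the background. In a bulk sample, fewer cells in G2 and mitosis and less RNA per such cell cannot be told apart.

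**Figure D1:**
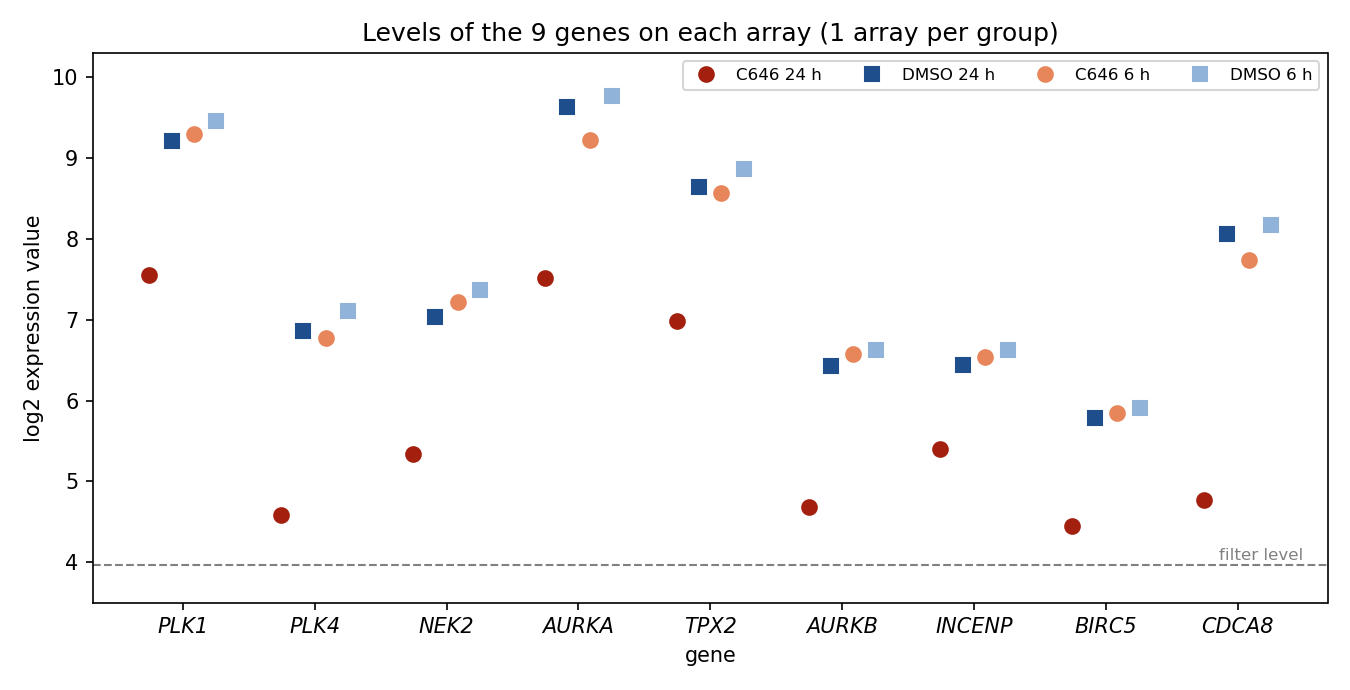
Log2 expression value (vertical axis) of each of the 9 genes (horizontal axis) on the 4 arrays, 1 point per array. Circles are C646 and squares DMSO, darker for 24 h, and the dashed line is the filter level of 3.96. The dark red circle of C646 at 24 h is the lowest point for every gene, and that of CDCA8 lies at 4.77 against 8.06 with DMSO.

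The promoters of 4 of the genes are shown. CDCA8, PLK1 and INCENP were chosen because their windows hold both motifs marked, and NEK2, the gene with the median difference, because its window holds only CCAAT. RefSeq promoter windows (GRCh38.p14, 250 bases before to 50 after a start) covered 6 of the 9 genes in 9 windows: PLK1, PLK4, AURKB, NEK2, CDCA8 and INCENP. Each line gives the 250 bases before the start, 5′ to 3′ on the gene's strand, at chr1:37692266-37692515 (plus strand), chr16:23678639-23678888 (plus strand), chr11:62123761-62124010 (plus strand) and chr1:211675622-211675871 (minus strand). Capitals mark TTTGAA, the core of the cell cycle genes homology region, and CCAAT or its reverse complement ATTGG, the box bound by NF-Y.
CDCA8: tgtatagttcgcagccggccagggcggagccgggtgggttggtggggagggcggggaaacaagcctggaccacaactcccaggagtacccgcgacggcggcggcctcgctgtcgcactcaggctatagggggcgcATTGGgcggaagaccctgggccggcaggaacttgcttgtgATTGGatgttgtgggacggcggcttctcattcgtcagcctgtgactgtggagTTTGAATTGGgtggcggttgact
PLK1: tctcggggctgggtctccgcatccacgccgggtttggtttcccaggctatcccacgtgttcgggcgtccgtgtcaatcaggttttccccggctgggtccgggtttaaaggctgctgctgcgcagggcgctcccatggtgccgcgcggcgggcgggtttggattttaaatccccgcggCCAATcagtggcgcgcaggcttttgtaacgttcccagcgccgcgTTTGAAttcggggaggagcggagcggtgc
INCENP: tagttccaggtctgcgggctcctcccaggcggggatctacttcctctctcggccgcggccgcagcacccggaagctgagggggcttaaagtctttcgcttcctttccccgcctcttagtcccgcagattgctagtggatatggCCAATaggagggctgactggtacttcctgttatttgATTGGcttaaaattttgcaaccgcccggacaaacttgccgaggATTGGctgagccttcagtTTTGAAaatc
NEK2: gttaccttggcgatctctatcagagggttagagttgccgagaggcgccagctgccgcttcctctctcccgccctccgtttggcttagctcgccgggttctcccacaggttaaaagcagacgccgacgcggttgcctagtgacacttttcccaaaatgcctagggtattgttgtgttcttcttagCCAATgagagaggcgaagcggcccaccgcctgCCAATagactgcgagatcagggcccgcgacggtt

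On either strand TTTGAA occurred in 4 of the 9 windows, each of another gene, and CCAAT in 7 of the 9, at least 1 for each of the 6 genes. Both stood together in 3 of the 9 windows, those of PLK1, CDCA8 and INCENP. The AURKB windows overlap and hold the same CCAAT box, so the windows are not independent. Over all 35116 windows of the same length 15.2% held TTTGAA, 34.6% held CCAAT, and 6.38% held CCAAT with TTTGAA or TTCGAA, the other spelling searched. None of the 9 windows held that other spelling. Among the 12625 windows of named genes that passed the filter, these 3 shares were 10.5%, 34.6% and 4.8%. In CDCA8 the TTTGAA began 23 bases before the start and shared 1 base with the nearest CCAAT box, in PLK1 it began 29 bases before the start, and in INCENP 10. In PLK4 the TTTGAA lay on the opposite strand, at base 39 counted from the start, and no TTTGAA lay in the windows of AURKB and NEK2. CDCA8 and INCENP, with the largest and the smallest 24 h difference, both carried these letters, at different positions. Whether the motifs relate to the size of the difference was not tested. A match is a description of the sequence only.

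Among the 5 kinases the 24 h differences lay close together, from -2.28 to -1.66. PLK4, the kinase of centriole duplication, read 4.58 with C646 and 6.86 with DMSO at 24 h, and 6.78 with C646 and 7.11 with DMSO at 6 h. Its difference was -2.28 at 24 h and -0.33 at 6 h, the largest of the kinases at the later time. AURKA read 7.52 with C646 and 9.64 with DMSO at 24 h, and 9.22 with C646 and 9.77 with DMSO at 6 h. The differences were -2.11 and -0.55, so Aurora A was the member with the largest difference at 6 h. Its partner TPX2 read 6.99 with C646 and 8.65 with DMSO at 24 h, and 8.57 with C646 and 8.86 with DMSO at 6 h. TPX2 differed by -1.66 at 24 h and -0.29 at 6 h, on both occasions by less than AURKA.

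PLK1, which is needed from mitotic entry to cytokinesis, read 7.56 with C646 and 9.21 with DMSO at 24 h, and 9.30 with C646 and 9.46 with DMSO at 6 h. The differences were -1.66 at 24 h and -0.16 at 6 h. NEK2 read 5.34 with C646 and 7.03 with DMSO at 24 h, and 7.21 with C646 and 7.36 with DMSO at 6 h. It stood at -1.70 at 24 h and -0.15 at 6 h, near to PLK1 at both times.

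The 4 subunits of the passenger complex spread more widely at 24 h than the kinases, with AURKB counted in both groups. The wider spread came mainly from CDCA8, since AURKB, BIRC5 and INCENP ran from -1.75 to -1.03. Borealin, the CDCA8 product, bridges survivin and INCENP. CDCA8 read 4.77 with C646 and 8.06 with DMSO at 24 h, and 7.74 with C646 and 8.18 with DMSO at 6 h. Its 24 h difference of -3.29, or 9.79-fold, was the 10th lowest of the 16579 probe sets. AURKB, the catalytic subunit, read 4.68 with C646 and 6.43 with DMSO at 24 h, and 6.58 with C646 and 6.63 with DMSO at 6 h, differences of -1.75 and -0.046. BIRC5, which binds phosphorylated histone H3 at centromeres, read 4.45 with C646 and 5.78 with DMSO at 24 h, and 5.84 with C646 and 5.91 with DMSO at 6 h, differences of -1.33 and -0.063. INCENP read 5.40 with C646 and 6.44 with DMSO at 24 h, and 6.54 with C646 and 6.63 with DMSO at 6 h, differences of -1.03 and -0.094. The scaffold thus stood just past the 2-fold line, and borealin far beyond it, in the same complex. On the C646 array of 24 h, CDCA8, AURKB, BIRC5 and PLK4 lay within 1 log2 unit of the filter level, by 0.81, 0.72, 0.49 and 0.62.

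**Figure D2:**
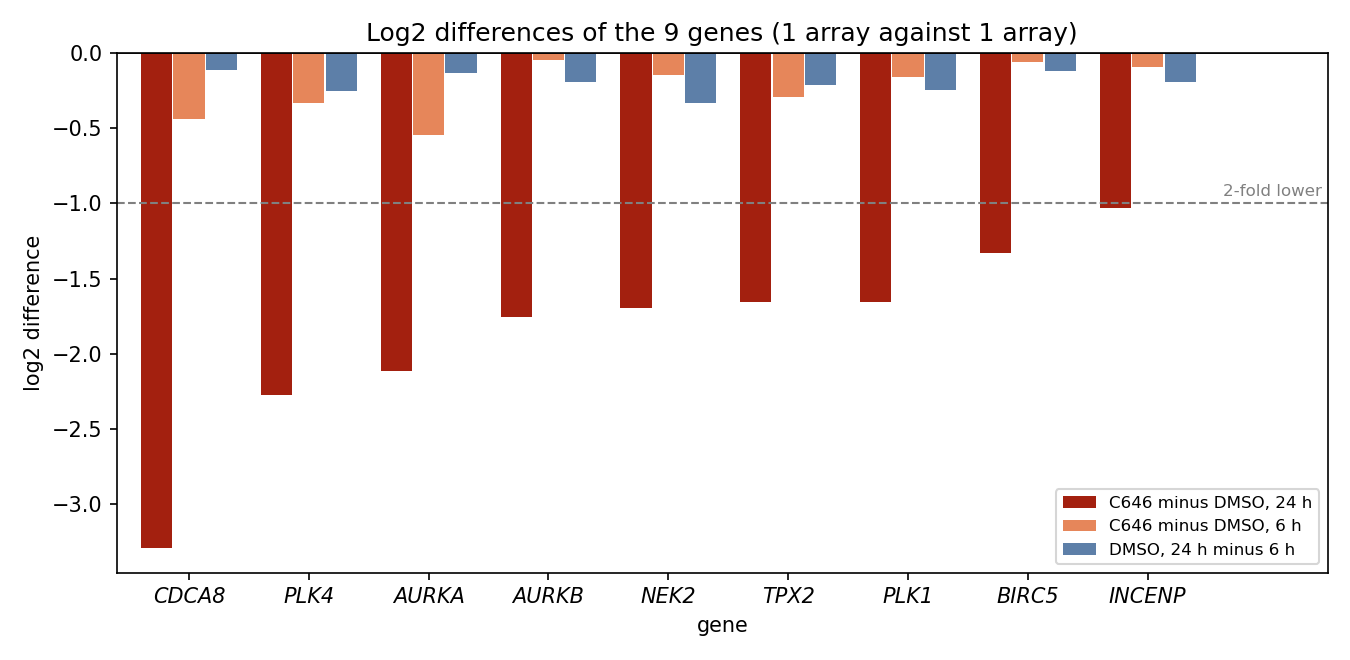
Log2 differences (vertical axis) of the 9 genes (horizontal axis, ordered by the 24 h difference): C646 minus DMSO at 24 h in dark red, C646 minus DMSO at 6 h in orange, and DMSO at 24 h minus DMSO at 6 h in blue, with the dashed line at 2-fold lower. All dark red bars pass the line, from -3.29 to -1.03, whereas no orange or blue bar goes below -0.55.

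At 6 h the same 9 genes lay below 0 with C646, where 50.6% of the background did, and none reached 2-fold, where 0.115% of the background was at least 2-fold lower and 0.127% at least 2-fold higher. Their median was -0.16, against -0.0024 in the background. It was -0.26 with the mean of all rows of a gene, -0.035 against the mean of both DMSO arrays and 0.060 against the DMSO array of 24 h, the last chosen after seeing the data. Between the DMSO arrays all 9 genes were also lower at 24 h than at 6 h, as were 54.8% of the background, by a median of -0.19 and from -0.33 for NEK2 to -0.11 for CDCA8. The C646 difference at 6 h was larger than this vehicle difference for AURKA, CDCA8, PLK4 and TPX2 and smaller for PLK1, AURKB, NEK2, BIRC5 and INCENP. Both differences were below 0 for all 9 genes, so this split also fixes where the C646 array of 6 h lay. For the first 4 genes that array lay below both DMSO arrays, which held for 38.7% of the background. Its difference from the DMSO array of 24 h was -0.41 for AURKA, -0.33 for CDCA8, -0.078 for PLK4 and -0.077 for TPX2. For the other 5 the C646 array of 6 h lay above the DMSO array of 24 h, by 0.060 for BIRC5 to 0.18 for NEK2. For these 5 the direction at 6 h depends on which vehicle array is used. Against the mean of both DMSO arrays the 6 h values were -0.48 for AURKA and -0.38 for CDCA8, whereas AURKB stood at 0.050, NEK2 at 0.016 and INCENP at 0.0031.

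**Figure D3:**
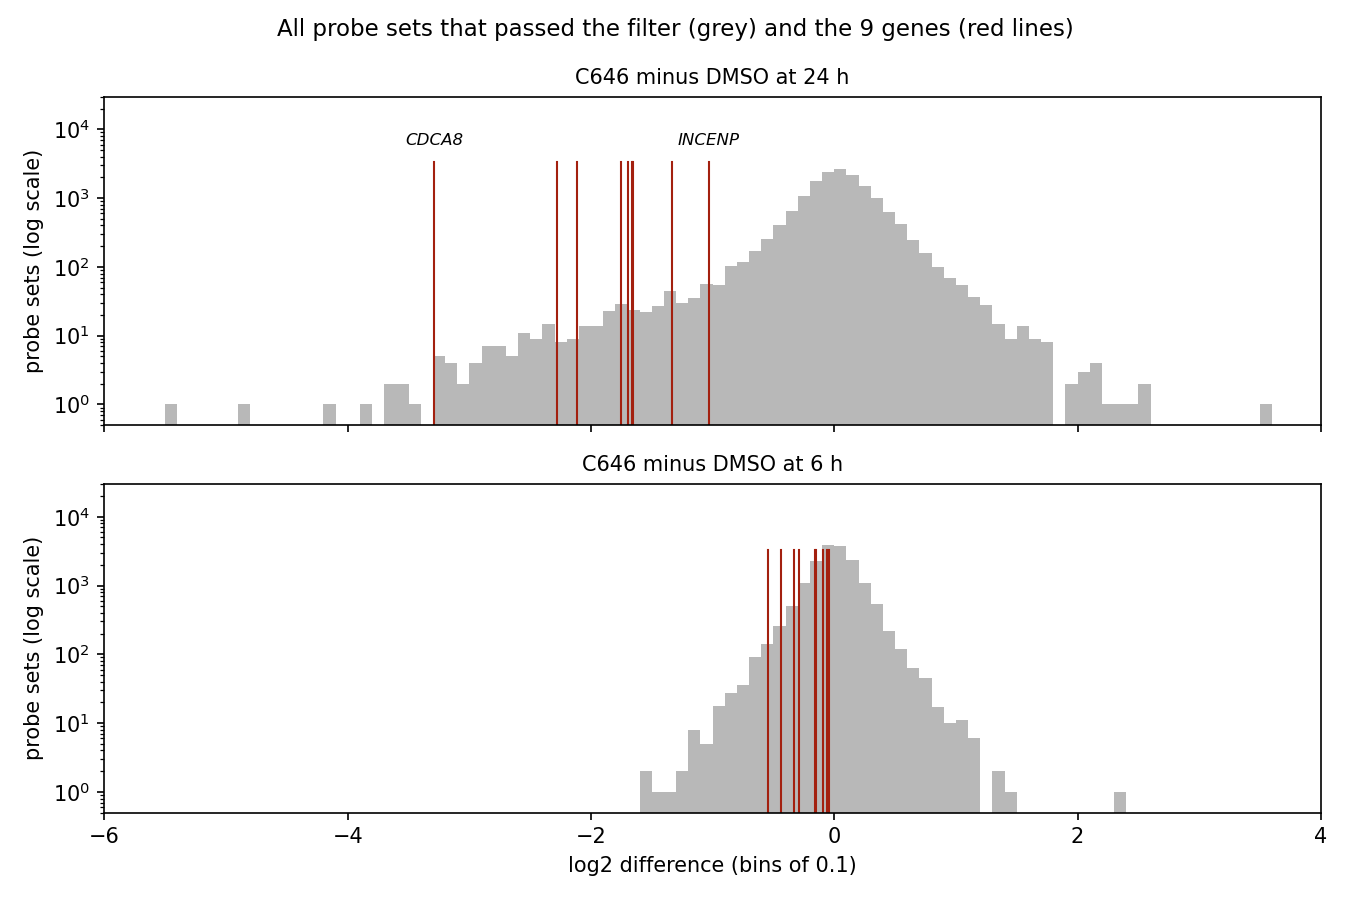
Number of probe sets (vertical axis, log scale) by log2 difference C646 minus DMSO (horizontal axis, bins of 0.1) at 24 h above and 6 h below, for the 16579 probe sets that passed the filter. Red lines mark the 9 genes. At 24 h they lie in the lower tail, between -3.29 and -1.03. At 6 h they lie between -0.55 and -0.046, where AURKA was the 254th lowest probe set, CDCA8 the 460th and AURKB the 6428th.

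Under C646 alone, all 9 genes were at least 2-fold lower at 24 h than at 6 h, against 2.41% of the background. These differences ran from -2.96 for CDCA8 to -1.13 for INCENP and share the C646 arrays with the treatment differences. The 24 h effect minus the 6 h effect was at or below -1 for 8 of the 9 genes, against 2.2% of the background, with INCENP at -0.94. It came to 74.2% of the 24 h difference for AURKA, the lowest share, and 97.4% for AURKB, the highest. The AURKB share rests on its 6 h difference of -0.046, which turned to 0.050 against the mean of both DMSO arrays.

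A model of treatment over both times was fitted with limma on all 4 arrays, with time as a term and 1 residual degree of freedom. The error in it reflects how far the effects at 24 h and 6 h differ, not how cultures vary. It called 0 of 16579 probe sets, and 1828 (11%) had an unadjusted limma p under 0.05. With 1 residual degree of freedom, a count of 0 does not show that genes did not differ. Of the 9 genes only AURKA was among these, with an estimate of -1.33 ± 0.41 (SE, 2 arrays per treatment), an unadjusted p of 0.031 and an adjusted limma p of 0.448. CDCA8 had the largest estimate, -1.87 ± 0.72 (SE), with an adjusted limma p of 0.448. The adjusted limma p of the other members ran up to 0.484. When the C646 array of 6 h was left out, the C646 array of 24 h stood against both DMSO arrays, and all 9 genes fell, with adjusted limma p from 0.0029 for CDCA8 to 0.012 for INCENP, where 6.9% of the background fell. That fit takes its spread from the DMSO arrays alone, assumes that the lone C646 array varied in the same way, and has no time term. The same limits hold when the C646 array of 24 h was left out instead and that of 6 h stood alone. Its estimates were -0.48 for AURKA and -0.38 for CDCA8, and the others ran from -0.20 for PLK4 to 0.050 for AURKB.

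PLK1, NEK2 and BIRC5 had more than 1 row with their symbol alone, 5 further rows in all. Probe set numbers follow the chromosomes, so each row was placed by the most frequent chromosome among the 20 named rows numbered nearest to it. All 9 brightest rows were placed on their own gene's chromosome, with 17 to 20 of the 20 rows on it. For the 4 rows placed elsewhere it was 9 to 16. The other PLK1 row, numbered among probe sets of chromosome 8, read 4.92 with C646 and 5.78 with DMSO at 24 h, a difference of -0.87. The other NEK2 rows were numbered among probe sets of chromosomes 2, 13 and 21 and differed by -0.24, -1.09 and -0.42 at 24 h, all nearer to 0 than the -1.70 of the brightest row. The other BIRC5 row was numbered among minus-strand genes of chromosome 17, whereas the brightest row lay among plus-strand genes. It read 3.12 with C646 and 3.76 with DMSO at 24 h, below the filter level on every array, a difference of -0.64. With all rows of a gene averaged, NEK2 stood at -0.86 and BIRC5 at -0.99 after 24 h, no longer 2-fold. A further row listed AURKA with 4 other symbols and is not assigned to any of them. What these rows hybridise to was not tested. Among the genes of the lists described next, the rows used for RACGAP1, UBE2S, PPP2R2A, PPP2R5A, PPP2R5E, PPIA and YWHAZ were also placed on another chromosome, and they stay in the counts and medians of their lists.

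**Figure D4:**
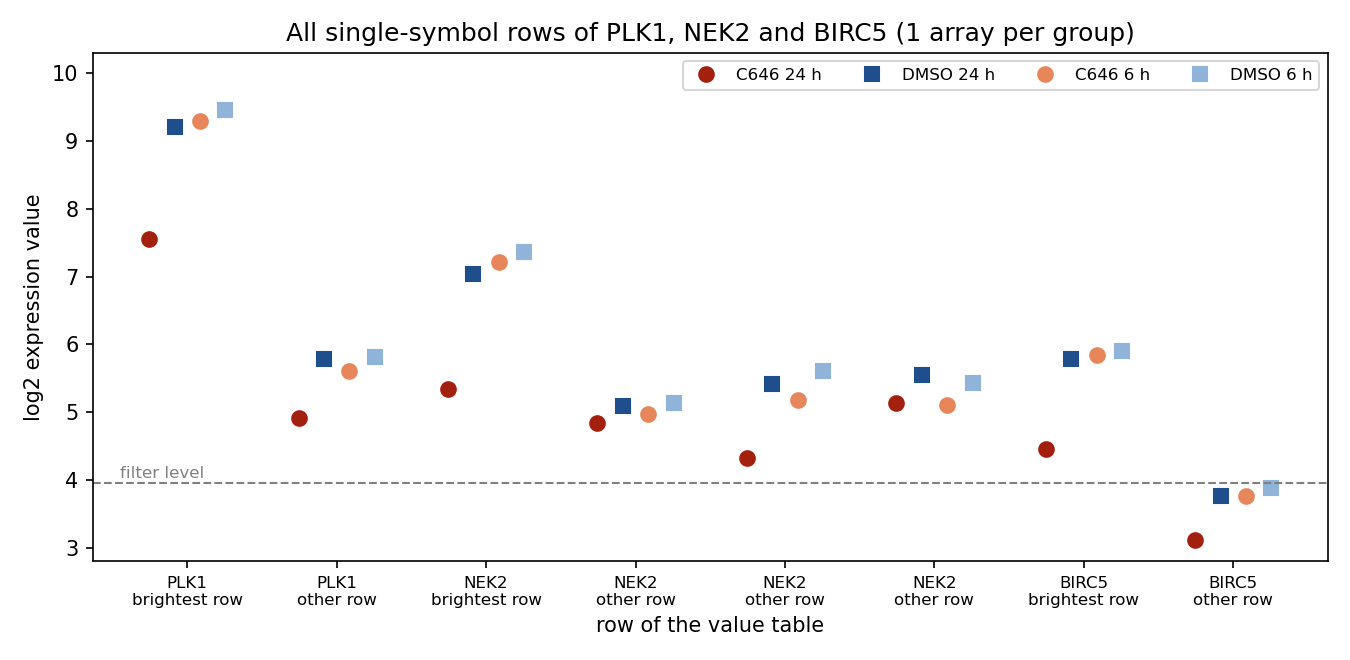
Log2 expression value (vertical axis) on the 4 arrays for each row of the value table that carries the symbol PLK1, NEK2 or BIRC5 alone (horizontal axis). Circles are C646 and squares DMSO, darker for 24 h. The gap between C646 and DMSO at 24 h is widest in the brightest row of each gene, for example -1.70 in NEK2 against -0.24 to -1.09 in its other rows.

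Paralogs of the kinases and of survivin gave other values. PLK2, a Polo-like kinase known as a stress-responsive target of p53, read 10.1 with C646 and 8.50 with DMSO at 24 h, and 8.96 with C646 and 8.63 with DMSO at 6 h. Its difference was 1.64 at 24 h, while those of PLK1 and PLK4 were -1.66 and -2.28. PLK3, chosen after its values were seen, read 7.83 with C646 and 7.06 with DMSO at 24 h, a difference of 0.76. Of the 11 measured paralogs none was 2-fold lower at 24 h, against 2.5% of the background. PLK2 alone was 2-fold higher, against 1.14% of the background, and the median of the 11 paralogs at 24 h was 0.011. The 8 NEK genes among them ran from -0.49 for NEK3 to 0.065 for NEK7 at 24 h, and 3 of these lay below the filter level. Among the 6 measured genes with a BIR domain besides BIRC5, none differed 2-fold, with BIRC7, which encodes the inhibitor of apoptosis livin, highest at 0.21 and BIRC6 lowest at -0.047.

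**Figure D5:**
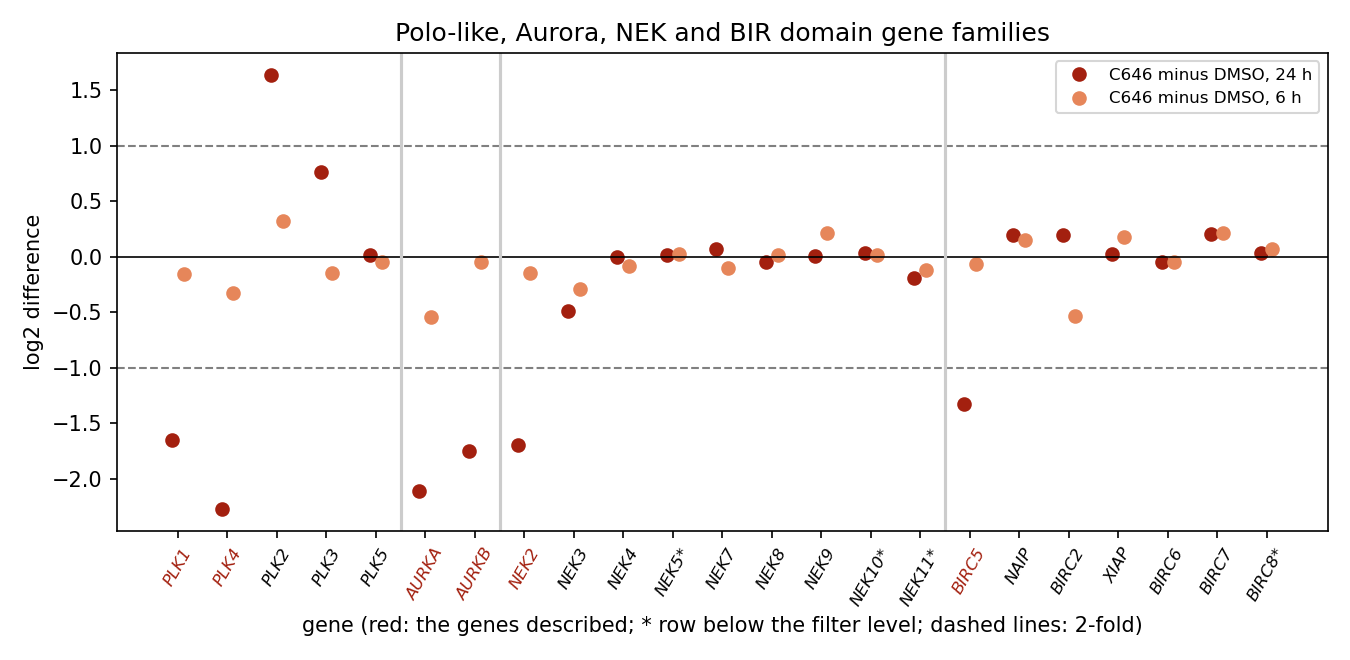
Log2 difference C646 minus DMSO (vertical axis) at 24 h in dark red and at 6 h in orange for the measured Polo-like, Aurora, NEK and BIR domain genes (horizontal axis), with dashed lines at 2-fold. The genes described here, labelled in red, lie between -2.28 and -1.33 at 24 h, and PLK2 lies at 1.64.

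Other kinases of mitosis were lower at 24 h as well. Of 11 measured, 9 were at least 2-fold lower, with a list median of -1.72 at 24 h and -0.34 at 6 h. In the background 2.5% of probe sets were at least 2-fold lower at 24 h. The checkpoint kinase gene TTK was at -2.60, MELK at -2.37, the checkpoint kinase gene BUB1 at -2.26, PBK at -2.17, the cyclin-dependent kinase gene CDK1 at -2.13 and the cytokinesis kinase gene CIT at -1.72. Partners that help Aurora A and PLK1 had 4 of 7 measured members 2-fold lower, with a list median of -1.33: the spindle gene HMMR at -2.04, FAM83D at -1.98, CENPU, whose product docks PLK1 at kinetochores, at -1.34 and the Aurora A substrate gene TACC3 at -1.33.

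Genes that bring the passenger complex to chromatin, or whose products it acts on, stood lower at 24 h than those of its ubiquitin adaptors. Of 11 measured members of this list 6 were 2-fold lower at 24 h: the centromere guardian gene SGO1 at -3.03, the microtubule depolymerase gene KIF2C at -2.59, BUB1 at -2.26, SGO2 at -1.77, HASPIN, the kinase that marks histone H3 for survivin, at -1.66 and the centromeric histone gene CENPA at -1.62. The ubiquitin ligase genes CUL3, KLHL9, KLHL13 and KLHL21, which act on Aurora B, lay between -0.12 and 0.15. The only row of RACGAP1 lay below the filter level and was numbered among probe sets of another chromosome, so no value is given for that gene. In the centriole pathway of PLK4, 4 of 9 measured members were 2-fold lower at 24 h, against 2.5% of the background. The list median was -0.42. STIL, which binds and activates PLK4, was at -2.46, CPAP at -1.12, the cartwheel gene SASS6 at -1.11 and the PLK4 scaffold gene CEP152 at -1.05.

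Genes that end or oppose the kinases' activity differed less. At 24 h, 2.5% of the background was at least 2-fold lower and 1.14% at least 2-fold higher. Of 16 measured genes of the ubiquitin system that removes mitotic kinases, 3 were 2-fold lower, with a median of -0.18: the conjugating enzyme gene UBE2C at -2.26, the inhibitor gene FBXO5 at -1.88 and the activator gene CDC20 at -1.67. Of 21 measured genes of opposing phosphatases, CDCA2, a chromatin targeting subunit of protein phosphatase 1, was at -2.73, and no other reached 2-fold in either direction, with a list median of 0.017. Of the 11 measured regulators of G2 and mitosis transcription, 4 were 2-fold lower: the B-MYB gene MYBL2 at -1.87, E2F1 at -1.57, the MuvB subunit gene LIN9 at -1.51 and FOXM1 at -1.08. The list median was -0.28. CREBBP, which encodes the C646 target CBP, was at 0.016 and CDKN1A, which encodes the kinase inhibitor p21, at 0.85, both chosen after their values were seen. Reference genes had a median of 0.064 and ran from -0.14 for GUSB to 0.32 for GAPDH.

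The genes most like the 9 in their profile over the 4 arrays were sought among 10623 named genes, each centred on its own mean. The measure was the root mean square distance, in log2 units, to the mean profile of the 9 genes. Nearest were the cyclin gene CCNB2 at 0.028, the midzone gene PRC1 at 0.031, the histone gene H2AC25 at 0.039, the checkpoint gene TRIP13 at 0.040, the cohesion gene ESCO2 at 0.041 and the histone gene H3C11 at 0.043. Histone genes are near-identical copies, so the values of a single one are uncertain. The 9 genes themselves lay at 0.080 for AURKB, 0.080 for PLK1, 0.081 for NEK2 and 0.097 for TPX2 up to 0.35 for INCENP and 0.57 for CDCA8. With 4 arrays, the likeness describes these arrays only.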

How the data were processed

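RNA from 4 samples of WM35 (100 ng each) was labelled with biotin and hybridised to 1-colour exon arrays. The authors' deposited table holds log2 values per gene-level probe set. Their range showed the log2 scale. How they were summarised and normalised is not stated in the sources used here. The submitters' processing notes name the build hg19. Arrays carry no read depth, and their number limits the precision.

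Gene names came from the platform annotation, updated through Entrez identifiers with RefSeq genes of GRCh38.p14 (20362 of 20429 rows with 1 symbol). The 4232 rows with several symbols were not named. Differences were computed on the deposited values, and a difference of at least 2-fold counted as called. The model over both times used limma 3.58.1 in R 4.3.3 (trend, Benjamini-Hochberg over 16579 probe sets, threshold 0.05), and was tested on simulated data. It recovered the planted changes when every probe set had the same spread. None were recovered when the spreads were single differences between these arrays, shuffled over probe sets. Single differences are rough measures of spread, and some hold the change in effect between the times. That part therefore does not show what the fit could call in these data. Beside the 9 genes, each list contributed members at least 2-fold different, up to 6 by size, or else its highest and lowest at 24 h, and the 6 nearest profiles were named. NEK3, NEK7, CUL3, KLHL9, KLHL13 and KLHL21 were named outside this rule, as were PLK3, CREBBP and CDKN1A. The members and lists were chosen with earlier results of these data known, so their counts are descriptions. Alternatives were quantile normalization, other filters, the mean of all rows, other DMSO arrays, a 1.5-fold threshold, no trend and leaving out each array.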

Additional observations from a re-analysis of the deposited data

Results flagged for a closer look

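SASS6, which encodes the cartwheel protein of new centrioles, differed between C646 and DMSO by -1.11 at 24 h and by 0.0092 at 6 h. The differences at 24 h and 6 h had opposite signs, which brought it up here. The 6 h difference was smaller in size than the -0.25 between the DMSO arrays (24 h minus 6 h), so its sign carries little weight. The difference between the times was not tested.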

How the results depend on the processing

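After 24 h the 9 genes kept their direction under quantile normalization, the mean of all rows and either other choice of DMSO array, and the count of 2-fold lower members was 7 with the mean of all rows and 9 with the others and at 1.5-fold. At 6 h that count was 0 in all of these. NEK2 (-0.86) and BIRC5 (-0.99) missed 2-fold with the mean of all rows. The 6 h median of -0.16 moved to -0.26 with the mean of all rows and to -0.035 against the mean of both DMSO arrays. Against that mean AURKB (0.050), NEK2 (0.016) and INCENP (0.0031) turned positive. Against the DMSO array of 24 h, an alternative chosen after seeing the data, the 6 h median turned to 0.060, with PLK1 at 0.087, AURKB at 0.15, NEK2 at 0.18, BIRC5 at 0.060 and INCENP at 0.10. The median of -0.26 was the value of NEK2, averaged with its other rows. The shifts against other DMSO arrays follow by arithmetic from the difference between the DMSO arrays. What made the rows or the DMSO arrays differ was not tested. Leaving out 1 array at a time, limma called between 0 and 2252 probe sets and between 0 and 9 of the 9 genes, all calls coming without the C646 array of 6 h. The numbers of 2-fold different probe sets at 24 h and 6 h stayed within 1.5 times of 603 and 40. The limma counts of 0 without the filter, without the trend and with quantile normalization say nothing about stability. With 1 residual degree of freedom, a count of 0 does not show that genes did not differ. No paired analysis was possible by replicate number because each group has 1 array and the labels give no such numbers, and the pairing of C646 with DMSO within a time is in the limma model as its time term. Values near the filter level limit how large a difference could be read.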
